A study of Homo sapiens with 12 samples.

Results

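The cytokine genes of the array and the genes of their receptors were defined by symbol as the interleukins and their receptors (IL and a digit), the CXC and CC chemokines and receptors (CXCL, CXCR, CCL and CCR) and the ligands and receptors of the tumor necrosis factor family (TNFSF and TNFRSF). By this rule 168 of the 18334 genes with a symbol of their own were members, on 340 of the 43376 features of the array, where a feature is one printed spot. Only 83 member features, of 33 genes, carried a value. The rule used names alone and no measured value.

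MIA PaCa-2, an established line of human pancreatic carcinoma cells, was exposed for 24, 48 or 72 h to 34 μg/mL of LE, the methanol-dissolved leaf extract of Achyranthes aspera, and its control was the same line with 2% methanol. Each of the 12 arrays held RNA of LE treated cells and RNA of control cells in 2 dyes, and there were 6 of them for 24 h, 4 for 48 h and 2 for 72 h. RNA of LE treated cells carried Cy5 on 6 of the arrays (3, 2 and 1 at the 3 times) and Cy3 on the others, so that each time point held both orientations. The value of a feature was the deposited log2 ratio. It was read as LE over control on every array, and each sample title names treated against untreated cells. The labels give the dyes but do not say whether the ratios of both orientations were brought to that direction. Values turned by the dye labels are given for many, but not all, of the members the text follows. A value without a turned one beside it is given as deposited only. The methods describe duplicate cultures, so on that description some arrays of 24 h and 48 h share a culture, and their spread is not that of independent cultures alone. Whether the rows of values stand in the order of their feature names could not be settled from the table, and each gene name beside a ratio rests on the deposited row names. On single arrays, features printed with 1 accession were as unlike in ratio as features of different genes (intraclass correlation -0.02 to 0.01 over 167 genes). A ratio may therefore not belong to the gene named beside it, and means over the features of a gene share this doubt. The extract is a mixture, and a cell line holds none of the immune and stromal cells of a tumor.

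Cytokines are secreted or membrane-bound signal proteins, and each acts through a receptor that is often built from more than one chain. Interleukins mostly signal through JAK kinases and STAT factors, or in the IL-1 family through MYD88. Chemokines guide the movement of cells through receptors of the G protein-coupled kind. TNF ligands bind trimeric receptors that lead to NF-kappaB, or in those with a death domain to caspases. Pancreatic carcinoma cells are known to secrete CXC chemokines and IL-6, while many other interleukins are made chiefly by lymphocytes and myeloid cells. The study took up immune response pathways, and the values below give what the arrays measured of the ligands and receptors themselves.

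Whether a cytokine gene had a value was the first measurement. A feature had a value on all 12 arrays or on none, since the methods kept only features that passed every criterion on every array. The criteria covered signal, saturation and spot quality, and also an opposite direction of change at dye-swap. A share with a value is thus not a measure of signal alone. Of all 17134 features with a value, 2% kept one direction on the 12 arrays once turned by the dye labels, and 0.414% as deposited. Of the member features 24.4% (83 of 340) had a value, against 42.9% (13436 of 31332) of all features with 1 symbol, and of the member genes 19.6% (33 of 168) had one, against 48.2% (8828 of 18334) of all genes. Among genes with a single feature the shares were 15.2% (17 of 112 members) and 36.8% (3889 of 10575). The table does not record why a feature is blank, and genes that the study follows, such as IL2, are among those blank under their symbol. A blank gives no level. In RNA from a whole culture, fewer cells that make a transcript and less of it per cell cannot be told apart.

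Receptors had values more often than ligands. Of 73 receptor genes 19 (26%) were measured, and of 88 ligand genes 12 (13.6%). The TNF receptors came first with 7 of 20 genes, followed by the CXC chemokines with 4 of 14 and the interleukin receptors with 11 of 39. Of the TNF ligands 2 of 11 genes had a value, of the CXC chemokine receptors 1 of 6, of the interleukins 5 of 40 and of the CC chemokines 1 of 23. None of the 8 genes for CC chemokine receptors had one, on 11 features. The 7 remaining matches of the symbol rule are not ligands or receptors, and include the antisense transcript IL6-AS1 and the IL-18 inhibitor IL18BP, which were measured, and the amino acid oxidase IL4I1, which was blank.

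**Figure D1:**
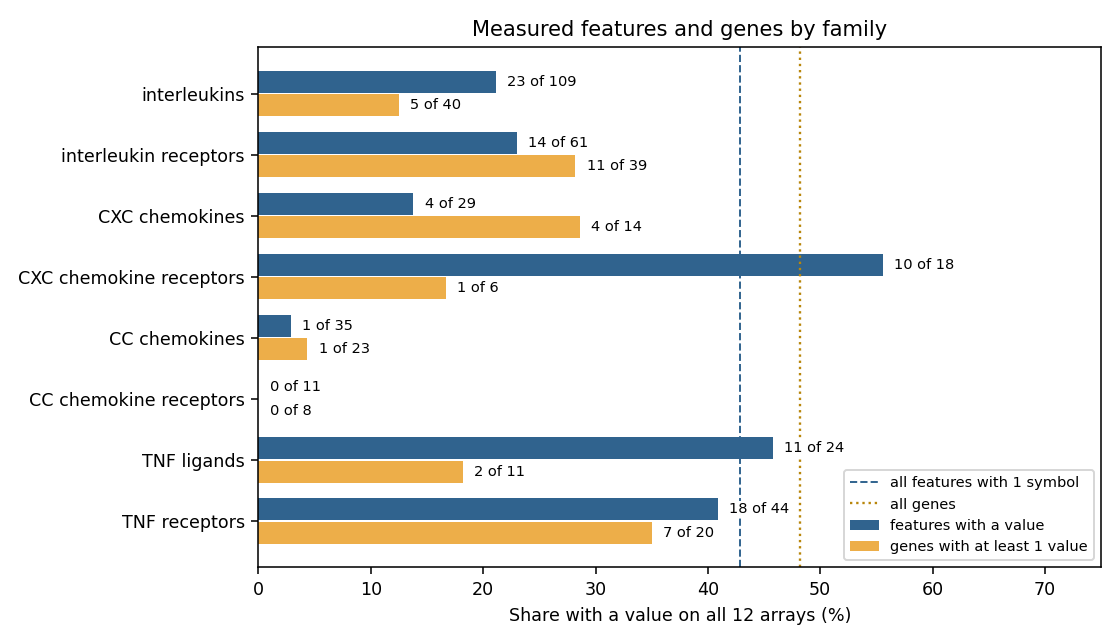
Share (%) of features (blue) and of genes (yellow) with a value on all 12 arrays in each family, with counts beside the bars and lines at the shares over all named features (42.9%) and all genes (48.2%). Every family lies below the line for all genes, and the high feature shares of the CXC receptors (10 of 18) and TNF ligands (11 of 24) come from the 10 measured features of CXCR4 and of TNFSF10.

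Markers of the line were all measured: the keratins KRT8, KRT18 and KRT19 and vimentin (VIM) each had at least 1 feature with a value. Of 25 immune cell markers 6 had one (CD4, CD14, CD79A, ITGAM, LCK and ZAP70), while the leukocyte antigen PTPRC and the T cell receptor chains CD3D, CD3E, CD3G and CD247 were blank. Of 12 endothelial and stromal markers 2 had a value (COL1A1 and THY1), and of the 8 enzymes and hormones of the normal pancreas that the array named 0 had one.

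Few cytokine systems had a value for every chain of ligand and receptor. IL6 had values on 10 of 10 features and its receptor chain IL6R on 1 of 1, while the signalling chain IL6ST was blank on 2 features. For IL-27, which acts on T cells, both the ligand subunit IL27 (1 of 1) and the receptor chain IL27RA (1 of 2) had a value, and its partner subunit EBI3 was blank. For IL-4 and IL-13 the receptor chains IL4R (1 of 1) and IL13RA1 (3 of 3) were measured, and IL4 (0 of 10), IL13 (0 of 1) and the common chain IL2RG (0 of 1) were blank. For IL-10 both receptor chains were measured, IL10RA on 1 of 3 features and IL10RB on 1 of 1, and the ligand IL10 was blank on 10 features. In the IL-1 family, IL1B had values on 10 of 10 features, the accessory chain IL1RAP on 2 of 4 and the decoy receptor IL1R2 on 1 of 2. The signalling receptor IL1R1 (0 of 2), the second ligand IL1A (0 of 10) and the antagonist IL1RN (0 of 2) were blank.

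The chemokine receptor CXCR4 had values on 10 of 10 features, and its ligand CXCL12 on 0 of 12. In the TNF family, the death ligand TRAIL (TNFSF10) had values on 10 of 11 features and its death receptors TNFRSF10A (1 of 1) and TNFRSF10B (2 of 2) were measured. The TRAIL receptors without a working death domain, TNFRSF10C and TNFRSF10D (0 of 1 each), and the soluble decoy TNFRSF11B (0 of 11) were blank. TNF receptor 1 (TNFRSF1A) had values on 11 of 11 features, whereas TNFRSF1B and the ligand TNF itself had none. The receptors of TWEAK (TNFRSF12A) and LIGHT (TNFRSF14) were measured and the ligands TNFSF12 and TNFSF14 were blank. Other genes without any value were IL2 on 11 features, IL18 and CCL2 on 10 each, and IL5, IL17A, IL22, CCR4, CXCL8 and TNFRSF9 on 1 each.

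The signalling genes behind these receptors were measured far more often than the ligands and receptors. Of 28 TNF receptor adaptors and NF-kappaB genes on the array 22 (78.6%) had a value, among them TRADD, FADD, CASP8, NFKB1 and RELA. Of 30 genes of JAK, STAT, SOCS and IL-1 adaptors 19 (63.3%) had one, among them JAK1, JAK2, TYK2, STAT3 and STAT6, whereas SOCS3 and MYD88 were blank. Of 45 further cytokine and receptor genes with other symbols 9 (20%) had a value, close to the share of the members. They were the receptor genes FAS, LTBR, IFNAR1, IFNGR1, IFNGR2, ACKR3 and CRLF3 and the ligands LTB and MIF.

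The CXC ligands that bind CXCR1 or CXCR2 lie together on chromosome 4, and their measured and blank members are shown by their promoters, with IL6 as a second gene of the same kind. NF-kappaB is known to act on several of these promoters. The 120 bases before the start of transcription are given 5′ to 3′ on the strand of the gene (RefSeq, GRCh38.p14), and capitals mark the NF-kappaB type motif GGANTTTCC, searched on both strands.
CXCL1, chr4:73869273-73869392, plus strand: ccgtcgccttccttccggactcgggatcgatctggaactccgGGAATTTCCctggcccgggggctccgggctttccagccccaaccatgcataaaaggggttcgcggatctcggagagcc
CXCL3, chr4:74038690-74038809, minus strand: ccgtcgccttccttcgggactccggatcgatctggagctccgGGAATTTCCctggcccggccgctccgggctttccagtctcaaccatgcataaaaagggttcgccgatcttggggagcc
CXCL2, chr4:74099196-74099315, minus strand: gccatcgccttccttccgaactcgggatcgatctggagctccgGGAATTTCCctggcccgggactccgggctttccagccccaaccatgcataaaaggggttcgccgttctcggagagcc
CXCL5, chr4:73998678-73998797, minus strand: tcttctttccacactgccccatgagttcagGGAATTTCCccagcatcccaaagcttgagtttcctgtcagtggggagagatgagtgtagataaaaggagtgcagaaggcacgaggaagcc
CXCL6, chr4:73836558-73836677, plus strand: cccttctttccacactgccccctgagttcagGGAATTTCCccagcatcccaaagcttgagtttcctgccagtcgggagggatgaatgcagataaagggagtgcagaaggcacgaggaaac
CXCL8, chr4:73740449-73740568, plus strand: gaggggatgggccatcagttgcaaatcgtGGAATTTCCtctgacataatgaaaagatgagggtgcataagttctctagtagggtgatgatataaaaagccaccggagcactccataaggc
IL6, chr7:22727080-22727199, plus strand: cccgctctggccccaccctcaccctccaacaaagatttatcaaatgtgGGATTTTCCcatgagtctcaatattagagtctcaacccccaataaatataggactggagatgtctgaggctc
The motif was in the same window of 272 of 35116 promoters in the table (0.775%) and of 12 of 185 promoters of members (6.49%), which cover 129 of the 168 genes. It was found in 6 of 42 promoters of measured members (14.3%) and in 6 of 143 promoters of blank ones (4.2%). All 7 genes shown carry it, and CXCL1, CXCL3, CXCL5 and IL6 had a value while CXCL2, CXCL6 and CXCL8 had none. The windows of CXCL1 and CXCL3 had the same base at 109 of 120 positions (90.8%), and those of CXCL5 and CXCL6 at 110 of 119 (92.4%, ungapped). The motif covers both the GGAATTTCC of the CXCL genes shown and the GGATTTTCC of IL6, so their match is no independent finding. Near copies such as CXCL1 and CXCL3 are counted as separate promoters in the shares above. Whether measured and blank members differ in the motif was not tested. A match of letters is a description of sequence and not of binding. CXCL1, CXCL2 and CXCL3 are close copies of one another, so that their probes may share signal.

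Across the members, LE shifted no feature past an adjusted p of 0.01, the level used by the methods. This was the case at 24 h (0 of 83 member features, against 0% of all 17134), at 48 h (0 of 83, against 0%) and at 72 h (0 of 83, against 0%). It was also the case in the mean over the time points (0 of 83, against 0.0525%, or 9 of 17134), in the moderated F over the 3 time points (0 of 83, against 0%), and in the differences 48 h minus 24 h, 72 h minus 24 h and 72 h minus 48 h (0 of 83, against 0% in each). The fit was limma with 1 term per time point, and p-values were adjusted over all 17134 features.

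At an unadjusted limma p under 0.05, 6 of 83 member features passed at 24 h (5.78% of all features), 7 at 48 h (9.29% of all) and 10 at 72 h (8.99% of all). Averaged over the time points 11 passed (15.9% of all) and in the moderated F 8 (9.71% of all). In the differences, 3 passed for 48 h minus 24 h (4.82% of all), 5 for 72 h minus 24 h (3.9% of all) and 2 for 72 h minus 48 h (3.9% of all). The shares of members ran from 2.41% to 13.3% and were thus near those of all features. Of the 10 features at 72 h 9 lay above 0, and of the 11 in the mean 8. The same split over all features is not given, so no direction of the members is read from it. Once turned by the dye labels, 2 member features passed at 72 h (841 of all 17134). In the mean 18 passed in that reading (3513 of all).

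The size of the log2 ratios was also that of the array as a whole. The median absolute log2 ratio of the member features was 0.15 at 24 h, 0.22 at 48 h and 0.27 at 72 h, against 0.16, 0.22 and 0.29 over all features. The median signed ratio was -0.02, 0.01 and 0.15, against 0.02, 0.00 and 0.04. At 72 h 55 of 83 member features lay above 0, and 3 were past 1 on the log2 scale in either direction, against 5.51% of all features. One direction on every array was found at 3 member features at 24 h (2.81% of all features), at 14 at 48 h (14% of all), at 44 at 72 h (54.1% of all) and at 0 over all 12 arrays (0.414% of all). Of the 44 at 72 h 34 lay above 0 on both arrays. By gene 23 of 33 members lay above 0 at 72 h, against 54.4% of all genes. Once turned by the dye labels, the member median at 72 h was -0.11, against -0.01 over all features, so this direction depended on the reading. The 72 h counts rest on 2 arrays and on several features of the same genes.

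**Figure D2:**
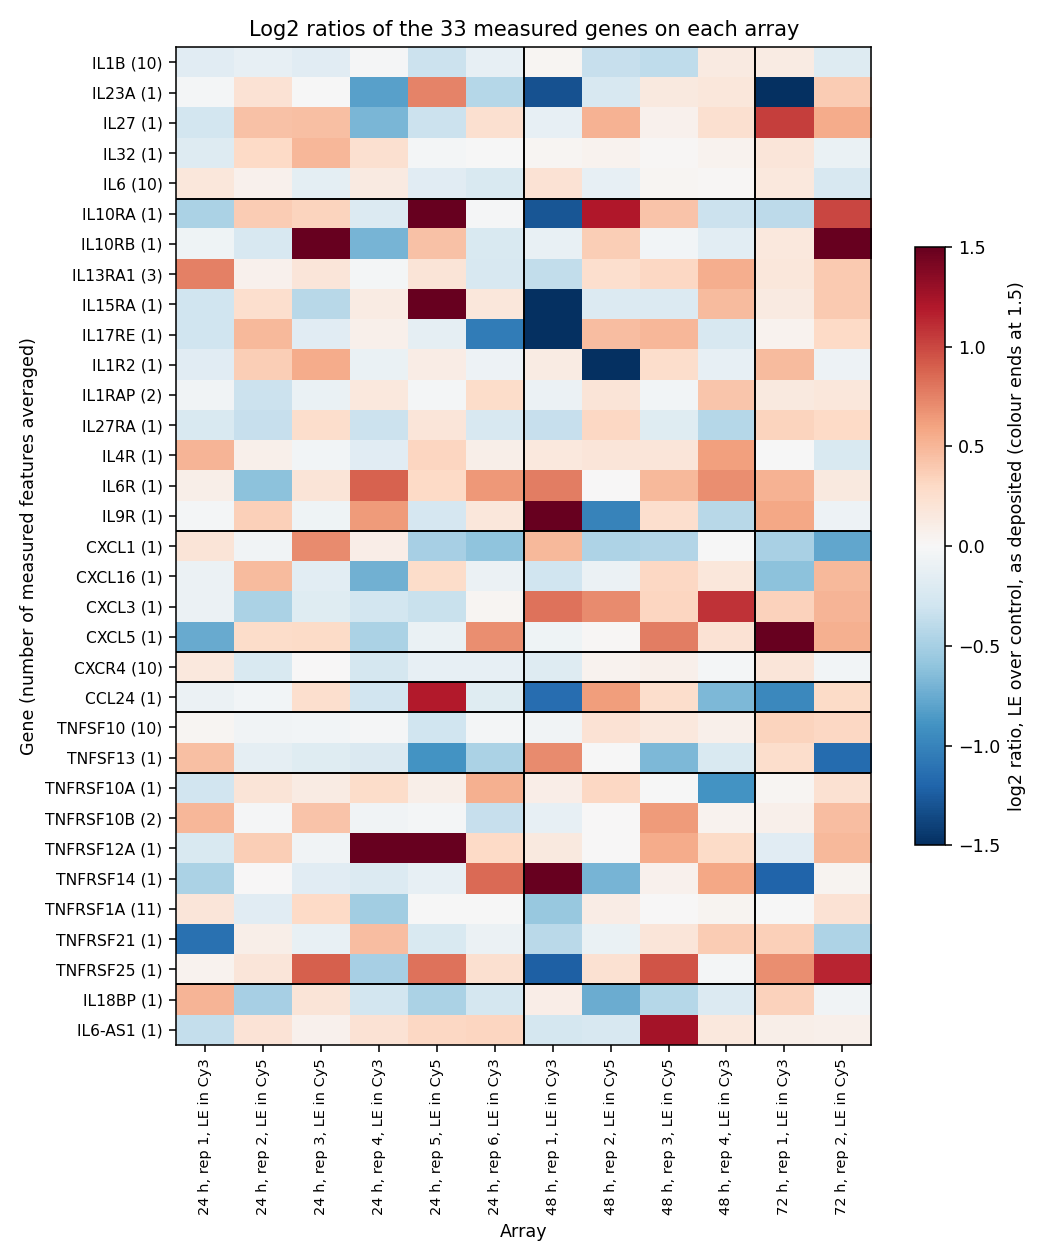
Log2 ratio of LE over control, as deposited, of the 33 measured genes (rows, mean of the measured features, number in brackets) on each of the 12 arrays (columns), grouped by family and by time. Of the 25 genes of 1 measured feature 22 span at least 1 on the log2 scale over the arrays, and no gene keeps a single color across the 12 arrays; IL6R comes closest, above 0 on 11.

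Among the receptors, gene values lay above 0 at 72 h for 16 of 19 genes, with a median of 0.20, against 54.4% of all genes and a median of 0.04. At 24 h 12 of 19 lay above 0 and at 48 h 11 of 19, against 52.8% and 50.4% of all genes. Of the 12 ligands 2 lay above 0 at 24 h, 7 at 48 h and 5 at 72 h. Turned by the dye labels, 7 of 12 ligands lay above 0 at 24 h, 6 at 48 h and 4 at 72 h, so the low count at 24 h did not hold in that reading. Of the 19 receptors 11, 13 and 12 lay above 0 at the 3 times, against 49.2% of all genes at 72 h. The 72 h values rest on 2 arrays, and the split into ligands and receptors was not tested.

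Of the chemokines, CXCL5, which attracts neutrophils, had the highest gene value at 72 h. Its only measured feature gave -0.76, 0.27, 0.29, -0.47, -0.10 and 0.69 on the 24 h arrays 1 to 6. It gave -0.07, 0.02, 0.77 and 0.22 on the 48 h arrays and 2.20 and 0.54 on the 72 h arrays. The mean was 1.37 ± 1.18 (SD, n = 2) at 72 h, with a limma adjusted p = 0.25 (unadjusted p = 0.0041), and most of it came from the array with LE in Cy3. The turned mean over the time points was -0.17, against 0.53 as deposited, so the direction of CXCL5 depended on the reading.

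CXCL3, a neutrophil chemokine as well, gave -0.08, -0.47, -0.18, -0.27, -0.33 and 0.03 at 24 h. At 48 h it gave 0.81, 0.71, 0.33 and 1.08, and at 72 h 0.35 and 0.51. The 48 h and 72 h arrays lay wholly above the 24 h arrays. At 48 h the mean was 0.73 ± 0.31 (SD, n = 4; limma adjusted p = 0.277, unadjusted p = 0.00155), and the mean over the time points was 0.31 as deposited and -0.08 once turned. CXCL1, on a promoter nearly the same as that of CXCL3, stood at -0.03 ± 0.48 at 24 h, -0.11 ± 0.44 at 48 h and -0.63 ± 0.21 at 72 h (SD, n = 6, 4 and 2). The 72 h value of CXCL1 was -0.15 once turned. CXCL16, a membrane-bound chemokine, stood at -0.03 averaged over the time points, and CCL24, which attracts eosinophils, at -0.14 (standard errors 0.14 and 0.20).

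IL6 was measured 10 times on the array, and its features lay on both sides of 0. Their mean log2 ratios ran between -0.41 and 0.19 at 24 h, -0.75 and 0.62 at 48 h and -1.65 and 1.14 at 72 h, with 5 features above 0 and 5 below at each time. The lowest, feature 39120, gave -0.09, 0.16, -0.83, -0.15, 0.38 and -1.22 at 24 h. It gave -0.79, -0.41, -0.81 and -0.9974 at 48 h and -2.04 and -1.26 at 72 h, thus below 0 on all 6 later arrays. Its mean over the time points was -0.90 (standard error 0.17, limma adjusted p = 0.0204), the smallest adjusted p of any member feature. With the ratios turned, that mean was 0.24.

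Feature 10592 of the same gene stood on the other side. It gave 0.04, -0.46, 0.33, -0.69, 0.21 and 0.41 at 24 h, -0.49, 1.32, 0.58 and 0.09 at 48 h and 1.33 and 0.96 at 72 h. Its mean at 72 h was 1.14 ± 0.26 (SD, n = 2; limma unadjusted p = 0.00986, adjusted p = 0.348). The mean of this feature over the time points was 0.50 as deposited and 0.15 once turned. Averaged over the 10 features, IL6 was at -0.03 ± 0.17 at 24 h, 0.04 ± 0.14 at 48 h and -0.04 ± 0.28 at 72 h (SD, n = 6, 4 and 2 arrays).

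The other genes with many features behaved in the same way. CXCR4, the receptor of CXCL12, had feature means between -0.33 and 0.94 at 72 h, with 6 above 0 and 4 below. IL1B, the secreted IL-1 of inflammation, had them between -0.95 and 0.55, and at 24 h 8 of its 10 features lay below 0 and its gene mean was below 0 on 6 of 6 arrays (-0.16 ± 0.10, SD). Once turned, the 24 h gene mean of IL1B was -0.05. TNFRSF1A ran between -0.80 and 0.74 over 11 features. TNFSF10 (TRAIL) ran between -0.36 and 0.86, with 8 of 10 features above 0 and a gene mean of 0.32 at 72 h, against -0.07 at 24 h. Averaged over the time points, 9 of the 10 TNFSF10 features lay above 0, at a gene value of 0.12 (standard error 0.09), and 0.00 once turned.

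**Figure D3:**
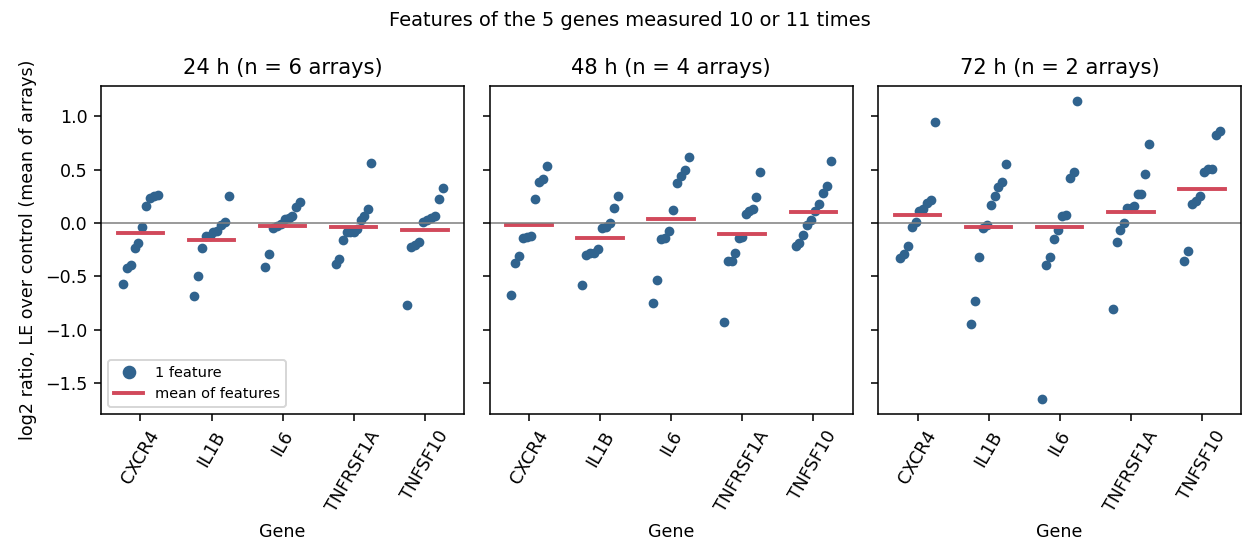
Mean log2 ratio of LE over control of each measured feature (points, ordered by value within a gene) of the 5 genes printed 10 or 11 times, at 24, 48 and 72 h, with the mean of the features as a bar. Features of one gene lie on both sides of 0 at every time, from -1.65 to 1.14 for IL6 at 72 h, while the bars stay between -0.16 and 0.32.

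These features carry one accession per gene. Over the 51 features of the 5 genes the intraclass correlation on single arrays, which is 1 where features of a gene give the same ratio and 0 where they are as unlike as features of different genes, lay between -0.09 and 0.12. Over the 167 genes of the array with at least 8 such features it lay between -0.02 and 0.01. Across the 12 arrays, the mean correlation between 2 features of a gene was -0.04 for CXCR4, 0.01 for IL1B, -0.03 for IL6, 0.13 for TNFRSF1A and 0.02 for TNFSF10. Whether a feature was blank was shared, however. Of 13 member probes printed at least 8 times, all copies were measured in 5 and none in 8 (CCL2, CXCL12, IL1A, IL2, IL4, IL10, IL18 and TNFRSF11B). Of the 238 such probes on the whole array, all or nearly all copies were measured in 159 and none in 65. Each log2 ratio is thus given as a value of the feature under its deposited row name, which this lack of likeness leaves in doubt, and for the 25 genes measured on a single feature no second value was at hand.

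Of the remaining features with an unadjusted limma p under 0.01, 2 were copies of such genes. Feature 31710 of CXCR4 gave 0.13, -0.21, 0.13, -0.17, 0.24 and 1.43 at 24 h, 0.14, 0.46, 0.47 and 0.44 at 48 h and 1.10 and 0.79 at 72 h. Its mean over the time points was 0.53 (standard error 0.16, adjusted p = 0.104), while the gene value over 10 features was -0.01. Feature 17992 of IL1B gave 0.12, 0.03, -0.77, -0.20, -1.62 and -1.64 at 24 h, 0.62, -0.9993, -1.77 and -0.17 at 48 h and -0.68 and -1.22 at 72 h. Its mean was -0.74 (standard error 0.24, adjusted p = 0.132), and it lay above 0 on 3 of 12 arrays. The turned means were -0.09 for the CXCR4 feature and -0.39 for the IL1B feature.

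**Figure D4:**
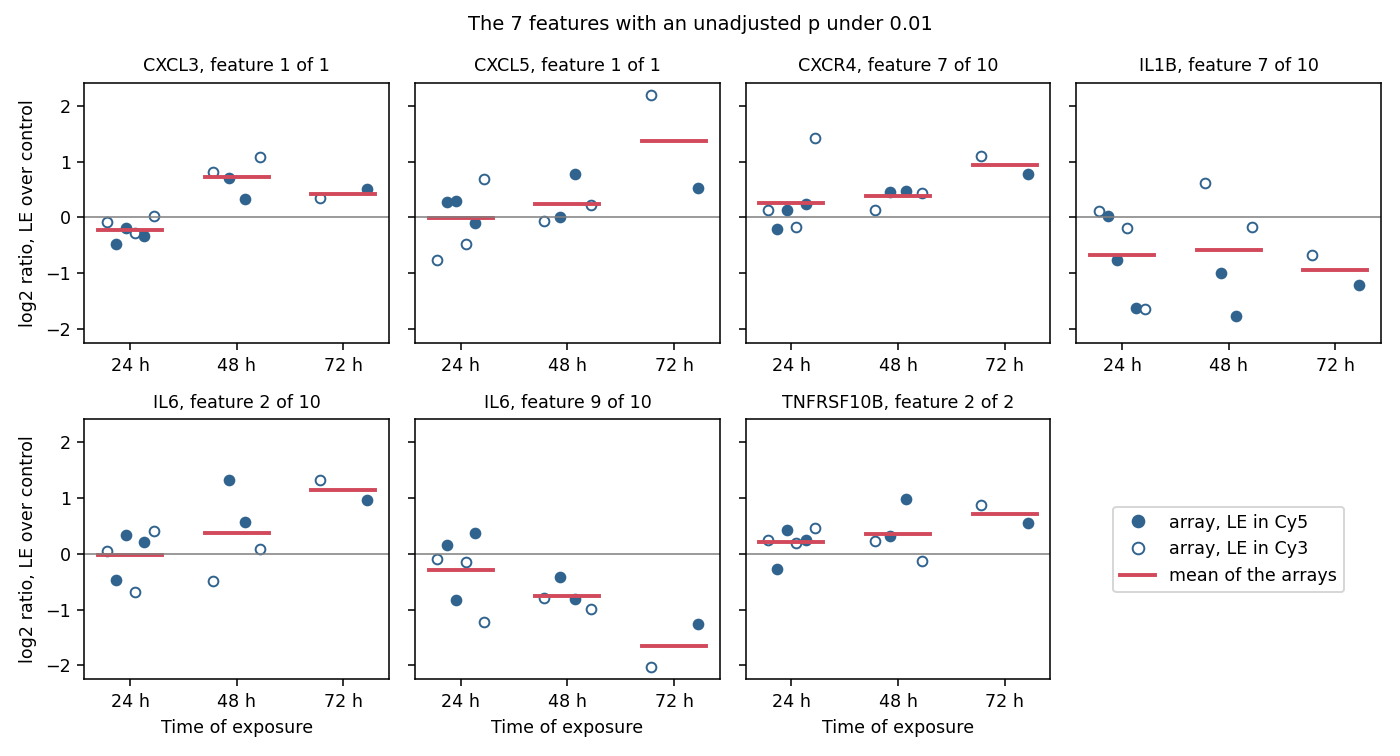
Log2 ratio of LE over control on each array (points, filled with LE in Cy5 and open with LE in Cy3) and mean at 24, 48 and 72 h (bars) for the 7 member features with an unadjusted p under 0.01 at a time point or in the mean. The pair of IL6 features moves apart, to 1.14 and -1.65 at 72 h, and CXCL5 at 72 h rests on one array at 2.20.

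Among the death receptors of TRAIL, TNFRSF10A gave -0.29, 0.20, 0.12, 0.28, 0.09 and 0.54 at 24 h, 0.10, 0.31, -0.01 and -0.89 at 48 h and 0.02 and 0.23 at 72 h, with a mean over the time points of 0.05 (standard error 0.14). Once turned, that mean was 0.12. The 2 features of TNFRSF10B differed. Feature 38651 gave 0.25, -0.28, 0.42, 0.19, 0.25 and 0.46 at 24 h, 0.23, 0.31, 0.99 and -0.13 at 48 h and 0.88 and 0.56 at 72 h, and was above 0 on 10 of 12 arrays. Feature 4193 gave 0.75, 0.23, 0.43, -0.28, -0.31 and -1.14 at 24 h, -0.48, -0.30, 0.30 and 0.24 at 48 h and -0.72 and 0.36 at 72 h. Their means over the time points were 0.43 (limma adjusted p = 0.131) and -0.10 (adjusted p = 0.855), and once turned 0.02 and 0.26.

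TNFRSF12A, the TWEAK receptor, gave -0.23, 0.36, -0.06, 1.79, 1.76 and 0.30 at 24 h, 0.15, 0.00, 0.56 and 0.29 at 48 h and -0.17 and 0.48 at 72 h. Its 24 h mean of 0.66 ± 0.90 (SD, n = 6; limma adjusted p = 0.806) was carried by replicates 4 and 5, one of each dye orientation. Once turned, the 24 h mean was 0.04, so it depended on the reading. The other TNF receptors had means over the time points of 0.39 for the death receptor TNFRSF25, 0.02 for TNFRSF14, -0.07 for TNFRSF21 and -0.01 for TNFRSF1A. TNFRSF25 stood at 0.92 ± 0.32 at 72 h (SD, n = 2; limma adjusted p = 0.553), and its mean was 0.39 once turned as well. Its arrays with LE in Cy5 averaged 0.70 and those with LE in Cy3 -0.13, and its 72 h value was 0.23 once turned. TNFSF13 (APRIL), which supports B cells and plasma cells, stood at -0.25 (standard error 0.17).

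Among the interleukin receptors, IL6R had the most even direction. It gave 0.08, -0.62, 0.19, 0.89, 0.29 and 0.66 at 24 h, 0.77, 0.00, 0.48 and 0.70 at 48 h and 0.52 and 0.15 at 72 h, and was thus above 0 on 11 of 12 arrays. The mean over the time points was 0.36 (standard error 0.15, limma adjusted p = 0.27), and -0.24 once turned, since the arrays with LE in Cy3 were the higher ones. IL27 stood at -0.02 ± 0.47 at 24 h, 0.18 ± 0.27 at 48 h and 0.80 ± 0.34 at 72 h (SD, n = 6, 4 and 2), with a limma adjusted p = 0.46 at 72 h, and its 72 h value was -0.24 once turned. Its receptor chain IL27RA was at -0.11 ± 0.27, -0.16 ± 0.33 and 0.31 ± 0.03 at the 3 times.

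The receptor chains of IL-4 and IL-13 were at 0.10 (IL4R) and 0.21 (IL13RA1, mean of 3 features at 0.03 to 0.36) when averaged over time. The chains of the IL-10 receptor were at 0.22 (IL10RA) and 0.35 (IL10RB), with SDs at 24 h of 0.89 each. Those of the IL-1 receptors were at 0.09 (IL1RAP) and -0.00 (IL1R2). IL15RA, which presents IL-15, stood at 0.04, IL17RE, a chain of the IL-17C receptor, at -0.07 and IL9R at 0.18. The ligands IL23A, a subunit of IL-23, and IL32 stood at -0.31 and 0.07, the IL-18 inhibitor IL18BP at -0.10 and the antisense transcript IL6-AS1 at 0.14. The standard errors of these genes lay between 0.10 and 0.26, and no adjusted p for a gene value in the mean over the time points was under 0.152 (limma on gene means). The housekeeping genes GAPDH and ACTB, with 10 and 13 features, stood at 0.18 and -0.13 (standard error 0.10 each) on the same scale.

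Turning the ratios by the dye labels changed the order of the members. The sign of the mean over the time points changed at 37 of 83 features and stayed at 46. In this reading 4 member features kept one direction on all 12 arrays, or 4.82%, against 2% of all features (343 of 17134), and no member feature passed the adjusted p of 0.01. They were 2 features of CXCR4, at 0.78 and -0.53, 1 of TNFSF10 at 0.58 and that of IL10RA at 0.70. As deposited the same features stood at 0.14, -0.02, 0.07 and 0.22. Of the 33 gene values 7 had an unadjusted limma p under 0.05 once turned, with a smallest adjusted p of 0.0537. Among them CCL24 stood at 0.54, against -0.14 as deposited, and IL23A at 0.53, against -0.31. Their sign thus changed, as did that of IL17RE (0.35, against -0.07) and CXCL16 (0.30, against -0.03). The sign stayed for IL10RA (0.70, against 0.22), IL10RB (0.45, against 0.35) and TNFSF13 (-0.39, against -0.25). IL9R, not among the 7, stood at -0.33 once turned, against 0.18. Arrays with LE in the same dye correlated over the member features at a median of r = 0.20 (30 pairs, -0.07 to 0.54) and those with LE in opposite dyes at -0.10 (36 pairs, -0.39 to 0.24). Over all features the medians were 0.23 and -0.03. The part of the dye in the values of single members was not tested beyond the dye term and this reading.

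**Figure D5:**
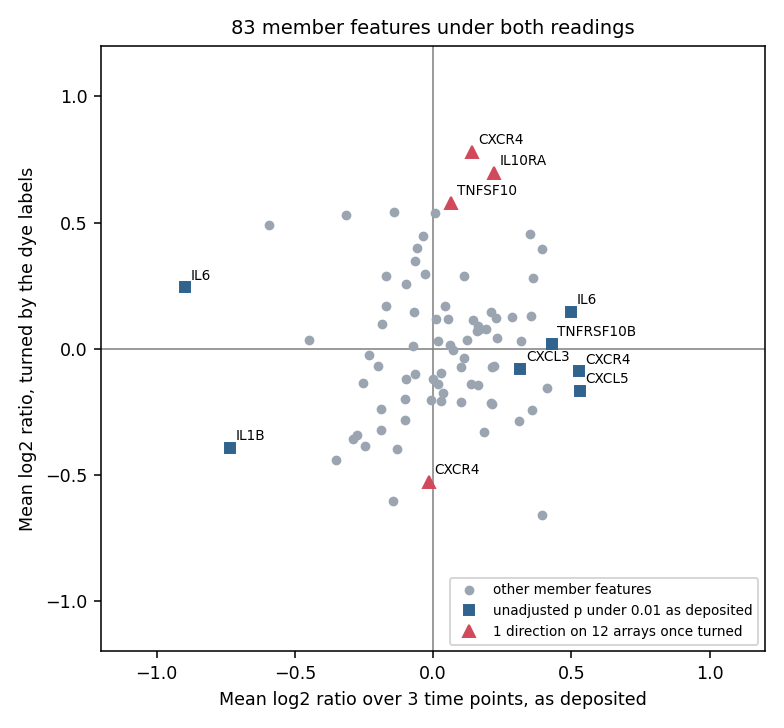
Mean log2 ratio over the 3 time points of the 83 member features with the ratios as deposited (horizontal axis) and turned by the dye labels (vertical axis). The 4 features of one direction on 12 arrays once turned (triangles) lie near 0 as deposited, and the 7 features with an unadjusted p under 0.01 as deposited (squares) lie between -0.39 and 0.24 once turned.

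In the signalling genes behind the receptors, no gene mean passed the adjusted p of 0.01 at any time or in the mean. Of all 8828 genes 7 passed it in the mean over the time points, and of all 17134 features 213 passed an adjusted p of 0.05 (limma). The values of these lists are given as deposited only. Among the members 13 of 33 gene values changed sign once turned, so the directions below rest on 1 reading. Of the 22 measured TNF receptor adaptors and NF-kappaB genes 10 lay above 0 and 12 below in the mean over the time points (median -0.03), with 4 at an unadjusted limma p under 0.05, against 15.7% of all genes. They were TNIP1, a partner of the inhibitor A20, at -0.63 (standard error 0.14, adjusted p = 0.0402), IKBKG, a subunit of the IKK kinase, at 0.56, MAP3K14 (NIK) at -0.42 and REL at 0.33. Of the 19 JAK, STAT, SOCS and IL-1 adaptor genes 15 lay above 0 and 4 below (median 0.11), where 53.5% of all genes lay above 0. An unadjusted p under 0.05 was found for 2 of them, PIAS4 at 0.47 and PIAS1 at 0.32, against 15.7% of all genes. Among the cytokine genes of other symbols LTBR, the lymphotoxin receptor, stood at 0.63 (standard error 0.12, adjusted p = 0.0262) and IFNGR1, a chain of the interferon gamma receptor, at -0.36 (adjusted p = 0.197), while MIF and FAS, each with 10 measured features, were at -0.00 and 0.07.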

How the data were processed

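The deposited values were log2 ratios per feature. According to the methods, the authors scanned 2-color Agilent whole genome arrays and kept features that passed signal, spot and dye-swap criteria on all arrays. They normalized in limma by lowess within arrays and quantiles between arrays. Each array had a mean near 0 while its SD ran from 0.48 to 0.99, and values had up to 6 significant digits with LE in Cy3 and up to 10 with LE in Cy5. Probes were named through the platform annotation, where 31332 of 43376 features had 1 symbol.

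The log2 ratios were fitted in limma 3.58.1 (R 4.3.3) with 1 term per time point over 12 arrays, with 9 residual degrees of freedom and Benjamini-Hochberg adjustment over 17134 features. Gene values are means of the features with that symbol. The fit and the intraclass correlation were tested on simulated data. Counts and figures came from Python 3.11.15 (pandas 2.3.3). The members and lists were chosen with earlier results of these data known. Every measured member gene was named, and values per array were given for features with an unadjusted p under 0.01 and for TNFRSF10A, TNFRSF10B and TNFRSF12A; IL6R and the features of one direction once turned were chosen after their values were seen. The methods describe duplicate cultures and the labels do not say which arrays share one, so p-values cover only the spread among arrays, and this may be technical. The number of arrays limits the precision. Alternatives were the turned ratios, a term for the dye, a block for the replicate number, each time point alone, arrays centered or scaled, robust variance, robust regression, array weights, gene means, an FDR of 0.05, each array left out and other ways to count symbols.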

Additional observations from a re-analysis of the deposited data

Results flagged for a closer look

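In 66 groups of 6 or 4 arrays, 1 array stood apart from the others of its time point by Dixon's 95% limit in 7 gene values, where chance flags about 1 in 20 groups. At 24 h replicate 5, with LE in Cy5, was the highest array for CCL24 (1.19, the others -0.29 to 0.25), IL10RA (2.04, the others -0.48 to 0.39) and IL15RA (1.51, the others -0.42 to 0.25), and the lowest for TNFSF10 (-0.30, the others -0.05 to 0.03). At 24 h replicate 6 was the highest for TNFRSF14 (0.85, the others -0.48 to 0.01). At 48 h replicate 4 was the highest for IL4R (0.61, the others 0.16 to 0.18), and replicate 1 the lowest for TNFRSF1A (-0.57, the others 0.00 to 0.11).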

How the results depend on the processing

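The count of 0 member features past an adjusted p of 0.01 held at 24, 48 and 72 h, in the moderated F and between time points under each alternative run, and in the mean of the time points it was 2 with robust regression and 1 at an FDR of 0.05. The 2 features were 39120 of IL6 and 37998 of TNFRSF1A, and the 1 was that of IL6, whose adjusted p in the mean lay between 0.00784 and 0.674 over the alternatives and was 0.205 without 72 h replicate 1. Robust regression called 343 features of the array and the FDR of 0.05 called 213, against 9. Once turned by the dye labels the median of the member features at 72 h was -0.11, against 0.15 as deposited, 4 features kept one direction on 12 arrays, against 0, and 13 of 33 gene values changed sign. Counted by symbol and accession, 18.4% of member probes (34 of 185) had a value, against 24.4% of features. With each array left out, counts of called members stayed at 0. With the replicate block the counts of called members were 0 as well, while the array as a whole had 86 calls in the mean over the time points, against 9. Replicate numbers follow the dye orientation, and the deviations of same-numbered arrays correlated at 0.06 to 0.49 (5 of 8 pairs over 0.1), so they were not taken as pairs. The cause of these changes was not tested. The remaining 187 of 192 recomputed values of the main results stayed close to those given. This does not extend to the single gene values. The sign of their mean over the time points changed at 7 of 33 genes without 72 h replicate 2 and at 6 with array weights.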
